A study of Mus musculus with 4 samples.

Results

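The comparison described here set the array of dendritic cells given LPS together with lactic acid (LPS+LA) against the array of the same kind of cells in medium. A gene belonged to it when the scanner software marked its probe as well above background on at least 1 of the 2 arrays. This held for 16182 of 23462 genes and for 39406 of 59305 spots that were not controls. The cells were bone marrow-derived dendritic cells, grown from the femur marrow of male C57BL/6J mice with 10 ng/ml GM-CSF in MEM that held 10% FBS, and used on day 6. One group received 100 ng/ml LPS and 20 mM L-(+)-LA for 4 h. The other received medium, for which the labels give no time, and no pH is given for either. Neither group carried a genetic change, per the labels, which call all cells WT. Arrays of cells given LPS alone or LA alone at the same doses and time completed the set of 4, with 1 array per group. With 1 array a side there was no test and no spread between cultures, so every value below is a difference between 2 arrays.

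LPS is a bacterial cell wall lipid that TLR4 senses, and in dendritic cells it switches on NF-kB and interferon signalling, which drive cytokine, antiviral and maturation genes. Lactic acid is the end product of glycolysis, leaves cells as lactate with a proton through monocarboxylate transporters, and is sensed by Hcar1 and by proton-sensing receptors. HIF-1 is the transcription factor of low oxygen and of glycolytic metabolism, and many genes of glycolysis and oxygen sensing carry its binding sites.

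Levels are log2 ratios of the deposited spot intensity to that array's 75th percentile, so a difference of 1 log2 unit is 2-fold. Where 4 levels stand together they are given in the order medium, LPS alone, LA alone and the LPS+LA array, and one marked dim was not well above background. An alternative setting, called normexp below, started from the median spot signal with the normexp background model and an offset of 50; its value is given where it took a gene under 2-fold or moved a large difference. Between 56.5% and 64.1% of the spots were well above background on the 4 arrays, and 0 spots were saturated. Probes printed 10 times gave the error of spots: their 1-spot difference between the 2 arrays had a median SD of 0.074 log2 units over 284 bright probes and reached 0.14 at the 95th percentile. Different probes of 1 gene had a median SD of 0.25 over 4908 genes, and this is the larger of the errors that the arrays show. Neither covers labelling, culture or animal. The labelled cell type was checked against 20 dendritic cell markers, of which 18 were measured on both arrays, among them Itgax (CD11c), the class II chains H2-Aa and H2-Ab1 and the regulators Irf8 and Zbtb46. Xcr1 and Itgae, markers of cross-presenting subsets, were not well above background. Markers of macrophages (23 of 24 measured) and of neutrophils and their precursors (22 of 22) were measured as well, and in RNA of a whole culture fewer cells of a type and less RNA per cell cannot be told apart.

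Cells given LPS and LA were close to those in medium over most genes and apart in a few gene groups. HIF-1 target genes, glycolysis genes, interferon-stimulated genes and heat shock genes lay lower than in medium. The immediate early genes Egr1 and Fos lay higher, while other members of their list lay on both sides of medium. Markers of neutrophils and of eosinophils, basophils and mast cells also lay higher. Of 14518 genes measured, that is well above background on both arrays, 436 (3.0%) lay 2-fold or more above medium with LPS and LA and 578 (3.98%) 2-fold or more below it. Together these were 1014 genes (6.98%), and 25 of the higher and 69 of the lower ones were at least 4-fold apart. The shares of 3.0% higher and 3.98% lower are the ones to set beside the counts of each gene list below. The median difference over all measured genes was 0.01 log2 units (quartiles -0.32 and 0.30), and 70.3% lay within 0.5 log2 units. Under LPS alone, 8.14% of 13597 measured genes were at least 2-fold higher than in medium and 7.50% lower, and under LA alone 3.12% and 3.32% of 14560. Both of these comparisons share the medium array with the present one, so the 3 are not independent.

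**Figure D1:**
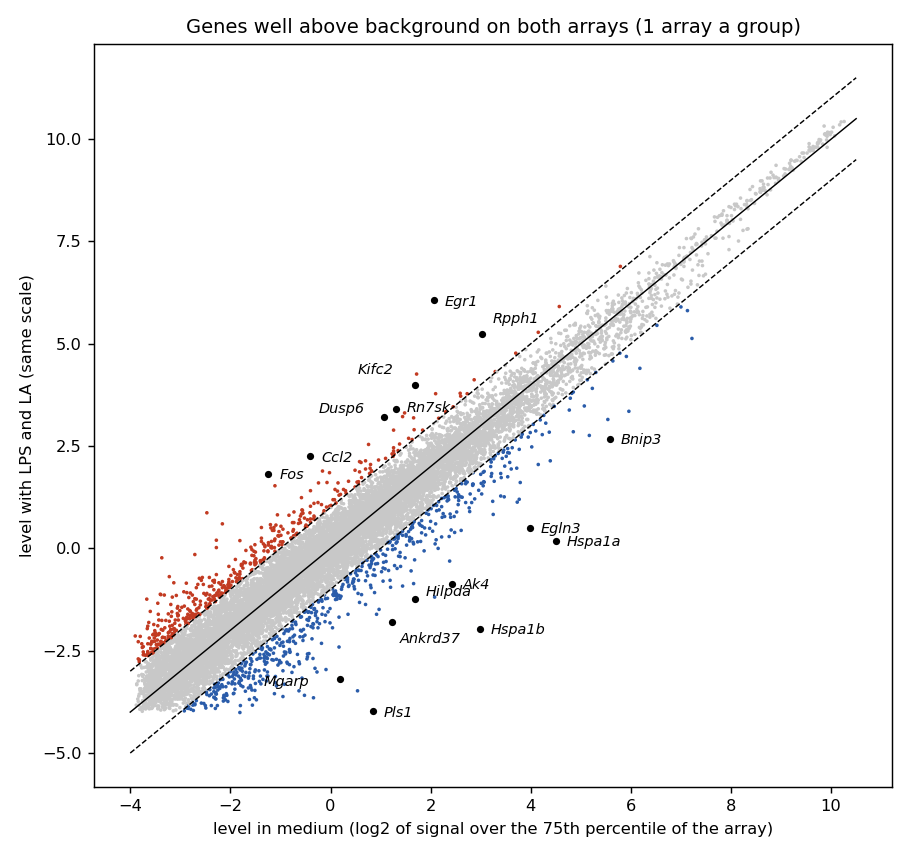
Level of each of 14518 genes in medium (horizontal axis) and with LPS and LA (vertical axis), both on the log2 scale centred on each array's 75th percentile, 1 array a group. Red points are the 436 genes at least 2-fold higher, blue points the 578 at least 2-fold lower, dashed lines mark 2-fold and black points are named genes; most genes lie along the diagonal, and Egr1 and Hspa1b stand far from it.

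The remaining genes of the comparison have no measured difference. Of these, 972 were well above background with LPS and LA only and 604 in medium only. For such a gene the bright level was set against the higher of its dim level and the lowest bright level on the other array, which gives a lower bound on the fold. By this bound 213 genes (21.9%) lay at least 2-fold above and 237 (39.2%) at least 2-fold below. A further 48 had no bound because the bright signal did not exceed that limit, 32 had another probe that was bright on the dim array, and 8 had a spot marked as an outlier.

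Egr1, a transcription factor induced within minutes of growth factor or stress signals, showed the largest upward difference among the named genes, 16.1-fold. Its level was 2.06, 1.85, 6.04 and 6.06. Fos, a subunit of the AP-1 factor, was 8.34-fold higher, with levels of -1.24, -1.95, 1.86 and 1.82 in the same order of arrays. Both genes were high on the 2 arrays with LA and low on the 2 without it. Ccl2, the monocyte-attracting chemokine, was 6.30-fold higher than in medium, and its levels of -0.40, 3.63, 2.48 and 2.25 show it high on all 3 treated arrays. Dusp6, a phosphatase that switches off ERK, was 4.45-fold higher (1.06, 0.55, 3.34 and 3.21). The U3 gene Rnu3b1 was 5.80-fold, the RNase P RNA Rpph1 4.64-fold and the 7SK RNA Rn7sk 4.32-fold higher. Other small RNAs, looked up after these values were seen, were not: Rmrp lay at 0.04 and Rn7s1 at 0.21. Of 8 measured genes in the snoRNA class of RefSeq, which leaves out Rnu3b1, 0 were at least 2-fold higher and 1 lower (median -0.26). Rpph1 stood at 3.03, 1.90, 5.06 and 5.24 on the 4 arrays. Kifc2, a kinesin, was 4.94-fold higher with its brightest probe (1.69, 1.57, 3.49 and 3.99), and its 2 probes gave 0.91 and 2.30. Arhgef16, a guanine nucleotide exchange factor, was 4.93-fold higher (-2.28, -3.43 (dim), -0.15 and 0.02), or 1.30 log2 units with normexp.

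Some genes in the upper tail rest on the LPS+LA array alone or on 1 of several probes. Tnpo2, a nuclear import receptor, lay at -2.28, -2.58 and -2.43 on the other arrays and at 0.20 with LPS and LA, and its probes gave differences of 0.55 and 2.49. For Ercc8, a DNA repair gene (6.79-fold), the 2 probes gave 0.08 and 2.76, and for the Wnt co-receptor Lrp6 (4.15-fold) 0.57 and 2.05. Ovol1, a transcription factor of epithelia, was 5.93-fold higher, at -2.71, -0.86, -1.69 and -0.15. H60c, a stress ligand of the receptor NKG2D (4.86-fold), and Trp53i11, a p53-induced gene (3.97-fold), complete the 15 largest that met the naming rules. Those rules, given with the processing, left some of the 25 genes past 4-fold unnamed. With normexp Tnpo2, Ercc8, Ovol1, H60c and Trp53i11 lay at 1.49, 1.64, 1.21, 1.01 and 1.21. Across the 436 higher genes, the LPS+LA level was at least 2-fold above each of the other 3 arrays in 42 (9.63%), and the medium level at least 2-fold below each of the others in 30 (6.88%).

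In the opposite direction the stress-induced HSP70 genes Hspa1b and Hspa1a were 30.7-fold and 19.9-fold lower than in medium. Hspa1b stood at 2.98, 3.80, -0.41 and -1.96, and Hspa1a at 4.50, 5.52, 2.33 and 0.18. Both genes were thus lowest on the LPS+LA array and highest on the LPS array. These genes are near-identical copies, so each probe may read both. Pls1, an actin-bundling protein, was 28.3-fold lower, at 0.84, -2.26, -4.27 (dim) and -3.98, or by -2.36 log2 units with normexp. Tnip3, an A20-binding inhibitor of NF-kB, was 8.36-fold lower, at -0.52, 0.56, -3.59 and -3.59, or by -1.22 log2 units with normexp. Maged1, an adaptor of cell death signalling, was 9.62-fold lower with its brightest probe, and its 2 probes differed by -3.27 and -1.21. Prr15 was 6.46-fold lower, at 2.38, 1.60, -0.14 and -0.31. Pinlyp was 6.76-fold lower, at -0.27, -2.07, -2.52 and -3.02. Cox10, an enzyme of haem A synthesis, was 9.93-fold lower, but its level of -0.34 in medium stood alone against -3.85 (dim), -3.61 and -3.65, and the solute carrier Slc35f2 (7.30-fold) likewise stood at -0.09 against -4.15 (dim), -3.25 and -2.96. With normexp the differences of Pinlyp, Cox10, Slc35f2 and Hspa1b were -1.12, -1.31, -1.32 and -3.72. Across the 578 lower genes, the medium level was at least 2-fold above each of the other 3 arrays in 94 (16.3%), and the LPS+LA level at least 2-fold below each of the others in 24 (4.15%). The other 6 of the 15 largest downward differences that met the naming rules belong to the HIF-1 targets described next.

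HIF-1 targets outside glycolysis had the lowest median of the 41 gene lists. Of 34 listed genes, 29 were measured on both arrays, and 21 of these lay 2-fold or more below medium, 8 were within 2-fold and 0 above, against 3.98% of all measured genes lower. The median difference was -1.58 log2 units (quartiles -2.39 and -0.80), against 0.01 over all genes. Egln3, the HIF prolyl hydroxylase that is itself induced by HIF-1, was 11.2-fold lower, with levels of 3.99, 3.53, 0.66 and 0.50. Mgarp, which codes for a protein of mitochondria, was 10.4-fold lower (0.18, -0.76, -3.31 and -3.19), or by -1.55 log2 units with normexp. Ak4, a mitochondrial adenylate kinase, was 9.84-fold lower (2.43, 2.71, -0.64 and -0.87), and Ankrd37 8.09-fold (1.23, -0.48, -2.10 and -1.79). In each of these 4 genes both arrays with LA lay below both arrays without it. Hilpda, a lipid droplet protein, was 7.55-fold lower and Bnip3, a receptor for the removal of mitochondria, 7.48-fold, at 5.58, 5.38, 2.90 and 2.68. Vegfa, the vascular growth factor, was 2.04-fold lower (4.85, 4.72, 3.80 and 3.82), with its 4 probes between -1.51 and -0.59, or by -0.77 log2 units with quantile normalization. The upper end of the list held Car9, a carbonic anhydrase, at 0.03, the lipid droplet protein Plin2 at 0.05, Rcor2 at 0.12, or -1.84 when its probes were averaged, and Cited2, an inhibitor of HIF-1, at 0.43. Of the 5 genes not measured on both arrays, 4 were bright in medium only, of which 3 were at least 2-fold lower by their bound, and Car12 was dim on both. Selenbp1 (-1.98) and Selenbp2 (-1.68), chosen after their values were seen, are close copies whose probes may read both. These 4, chosen after their values were seen, were P4ha2 (at least 8.10-fold), Adm (at least 4.79-fold), Stc2 (at least 2.39-fold) and Plod2 (at least 1.56-fold). Over the same 29 genes, which were bright on all 4 arrays, the list median relative to medium was -0.09 with LPS alone and -1.50 with LA alone.

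The 250 bases upstream of the RefSeq transcription start were searched for the HIF-1 core motifs ACGTG and GCGTG on both strands, because members of this list lay lower together. At least 1 match was present in 23 of 24 list genes with a promoter window (95.8%), in 25 of 28 genes of the glycolysis list (89.3%), in 55.0% of 11536 measured genes with a window and in 41.5% of all 27025 genes with one. A match was also present in 16 of 21 genes of the immediate early and cAMP-responsive list (76.2%), whose median difference was -0.02. It was present in 9 of 15 heat shock genes and in 9 of 32 interferon-stimulated genes (28.1%). A gene with several starts counted once if any of its windows held a match, and the 2 motifs can overlap on opposite strands. Such a match describes the letters and shows no binding. The windows of Egln3 (chr12:54203875-54204124, minus strand), of Bnip3 (chr7:138909507-138909756, minus strand) and of the glucose transporter gene Slc2a1 (chr4:119108495-119108744, plus strand) are shown as examples with 1, 5 and 2 matches, 5′ to 3′ along the gene from RefSeq on build GRCm38.p6. Capitals mark the matches, which read CACGT or CACGC where they lie on the other strand.
Egln3: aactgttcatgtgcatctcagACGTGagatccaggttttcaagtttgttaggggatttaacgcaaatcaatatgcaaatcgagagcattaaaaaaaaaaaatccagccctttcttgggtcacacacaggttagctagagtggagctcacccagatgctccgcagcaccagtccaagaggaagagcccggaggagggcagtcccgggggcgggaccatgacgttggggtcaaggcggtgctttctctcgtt
Bnip3: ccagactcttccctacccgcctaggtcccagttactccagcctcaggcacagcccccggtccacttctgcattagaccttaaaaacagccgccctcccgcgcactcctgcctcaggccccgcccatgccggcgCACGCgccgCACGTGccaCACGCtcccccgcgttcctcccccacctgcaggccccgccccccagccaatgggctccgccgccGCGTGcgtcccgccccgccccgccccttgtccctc
Slc2a1: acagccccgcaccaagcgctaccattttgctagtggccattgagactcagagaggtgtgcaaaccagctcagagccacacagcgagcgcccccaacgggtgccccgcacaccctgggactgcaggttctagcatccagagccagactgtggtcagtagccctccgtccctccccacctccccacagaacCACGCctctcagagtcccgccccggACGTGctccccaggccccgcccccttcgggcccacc

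Glycolysis and lactate genes lay lower as a group with LPS and LA, by a smaller amount than the HIF-1 targets. Of 34 genes 31 were measured, with a median of -0.67 (quartiles -1.15 and -0.48). Of these, 8 lay 2-fold or more below, against 3.98% of all measured genes, 23 were within 2-fold and 0 above. Tpi1, triose phosphate isomerase, was 5.32-fold lower, at 5.17, 5.21, 2.89 and 2.76, and its probes ranged from -2.41 to -1.80. Slc2a1, whose promoter is shown above, was 4.77-fold lower (4.39, 5.05, 2.12 and 2.14). Pfkp, the platelet-type phosphofructokinase, was 4.27-fold lower (3.24, 4.26, 1.24 and 1.15) and the hexokinase Hk2 3.43-fold (2.77, 2.99, 0.74 and 0.99). All 4 genes stood as high with LPS as in medium or higher, and low on both arrays with LA. Slc16a3, the lactate exporter MCT4, was 2.86-fold lower (3.05, 2.71, 1.67 and 1.53), and Slc16a1, the transporter MCT1, 1.96-fold (-0.00, -0.03, -0.88 and -0.97). Ldha, which reduces pyruvate to lactate, was 1.90-fold lower, with its probes at -1.19 and -0.92. Pfkm (-0.16), the mitochondrial pyruvate carrier Mpc2 (0.17), Hk3 (0.37) and Pfkfb4 (0.66) were at the upper end. The list median relative to medium was 0.04 with LPS alone and -0.71 with LA alone.

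**Figure D2:**
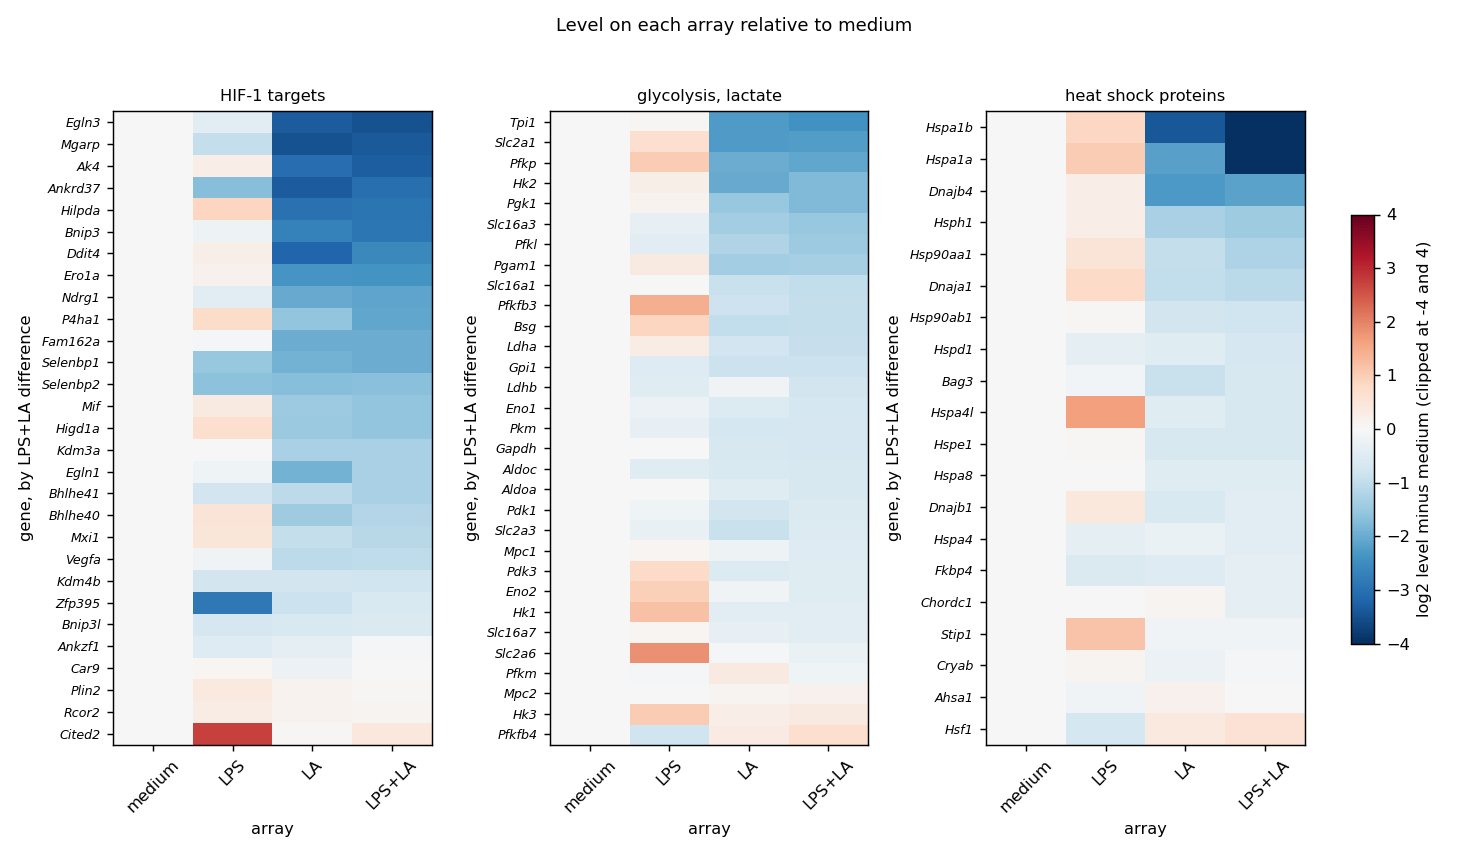
Level on each array minus the level in medium (colour, log2 units, clipped at -4 and 4) for the measured genes of 3 lists, ordered by the LPS+LA difference; the medium column is 0 by definition. Egln3 and Tpi1 head their lists as the lowest genes, and the darkest cells are those of Hspa1b and Hspa1a with LPS and LA.

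Other mitochondrial genes differed little. In the tricarboxylic acid cycle list, 23 of 25 genes were measured with a median of -0.21, and 2 were at least 2-fold lower: Dld, a subunit of the 2-oxoacid dehydrogenases (-1.26), and Sdhd, a subunit of succinate dehydrogenase (-1.19). Dld lay at -0.37 with normexp. Fh1, fumarate hydratase, was highest at 0.67. Of 33 measured oxidative phosphorylation genes 0 were 2-fold apart, while 31 lay below 0, with a median of -0.34. Atp5b, of ATP synthase, lay just inside 2-fold at -1.0 and Uqcrc1, of complex III, at 0.49. Cytosolic ribosomal protein genes gave a like picture, with 34 of 35 below 0, 0 at least 2-fold apart and a median of -0.42. The 25 reference housekeeping genes had a median of -0.26 with 19 below 0, among them Hprt (-0.86) and, at the upper end, Tfrc (0.56). Snrpd3, a splicing protein gene, was the 1 member past 2-fold (-1.24), and lay at -0.40 with normexp. Against these, 48.7% of all measured genes lay below 0, and the brightest 2900 genes had a median of -0.07.

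Heat shock genes beyond Hspa1a and Hspa1b lay lower as well. All in all 20 of 21 were measured, with a median of -0.63 (quartiles -1.11 and -0.39). Of these, 6 lay 2-fold or more below, against 3.98% of all measured genes, 14 were within 2-fold and 0 above. The co-chaperone Dnajb4 was 4.43-fold lower (2.15, 2.42, -0.15 and -0.00), with its probes between -2.15 and -0.87, and Hsph1, which recycles HSP70, 2.69-fold lower (3.06, 3.32, 1.76 and 1.63). Their regulator Hsf1 lay at 0.59, Ahsa1, an activator of HSP90, at 0.02, Cryab at -0.09 and Stip1 at -0.13. Endoplasmic reticulum stress genes had a median of -0.47, with 2 of 21 at least 2-fold lower, Creld2 (-1.17) and the chaperone BiP, Hspa5 (-1.12, at 4.79, 6.6, 3.63 and 3.67). Their upper end held Hyou1 at 0.62, with another probe at -0.38, and Sel1l at 0.46. Hspa5 lay at -0.88 with quantile normalization, the setting that brought it nearest to 0.

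In the integrated stress response list, 4 of 26 measured genes were at least 2-fold lower and 3 higher (median -0.20). The shares over all measured genes were 3.98% and 3.0%. Ddit4, an inhibitor of mTOR that is also in the HIF-1 list, was 6.03-fold lower (3.73, 3.95, 0.56 and 1.13), and Atf3, a stress-induced factor, 4.51-fold (2.61, 3.49, 0.63 and 0.44). Nupr1 (-1.15) and Trib3 (-1.05) were the other lower members, at -0.93 and -0.74 with normexp. Higher were the tryptophan tRNA synthetase gene Wars (2.73-fold), the serine synthesis enzyme Phgdh (2.42-fold, or 0.68 log2 units with the normexp background model) and the amino acid transporter Slc38a2 (2.29-fold, at 2.59, 0.94, 3.82 and 3.79). NRF2 antioxidant genes had a median of -0.44, with 5 of 26 at least 2-fold lower and 0 higher. Hmox1, haem oxygenase 1, was 4.26-fold lower (7.22, 7.07, 5.15 and 5.13), the glutathione transferase Gsta3 3.21-fold, Srxn1, which repairs peroxiredoxins, 2.96-fold and the thioredoxin reductase Txnrd1 2.25-fold, and Sqstm1, an autophagy receptor, was the remaining gene (2.14-fold). Gsta3 lay at -0.67 with normexp, and Txnrd1 and Sqstm1 at -0.99 and -0.82 with quantile normalization. Mt2, a zinc-binding metallothionein, was 6.08-fold lower, at 5.96, 7.05, 3.16 and 3.35. The zinc exporter Slc30a1 was 3.90-fold lower, Slc30a4 2.89-fold and Slc39a6 2.06-fold, which made 4 of 13 measured members lower in that list (median -0.50). With normexp the median of the zinc list was -0.17, and Slc30a4 and Slc39a6 lay at -0.52 and -0.90.

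Inflammatory cytokine genes lay far above medium with LPS alone and near their medium levels with LPS and LA. Of 22 genes 13 were measured, with 1 past 2-fold on either side and 11 within it, against 3.0% higher and 3.98% lower over all measured genes. The median was -0.03 and ranged from -0.23 to 0.15 between the settings tried. Over the same 13 genes, which were bright on all 4 arrays, the list median was 2.86 with LPS alone and -0.09 with LA alone. Il6, a fever-inducing cytokine, was 1.39-fold lower than in medium with LPS and LA (-0.47 log2 units), against 6.31 with LPS alone. Tnf lay at -0.69 (other probe -0.47), against 4.54 with LPS, and Il1b at 0.52 (other probe 0.48), against 4.17. The subunits of interleukin-12 went apart: Il12b was 2.45-fold lower (-1.29) and Il12a lay at 0.69, against 5.86 and 4.26 with LPS. Under normexp Il12b lay at -0.92. Il1rn, the interleukin-1 receptor antagonist, lay at -0.56. Osm, oncostatin M, was the 1 gene at least 2-fold higher, 3.45-fold, at 1.44, 2.35, 3.28 and 3.22, and its probes gave 1.79 and 2.99. Il10 and Ifnb1, which were bright with LPS alone, were dim in medium and with LPS and LA, so no difference can be given. Lta and Il1a, chosen after their values were seen, were at least 3.21-fold and at least 1.48-fold lower.

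**Figure D3:**
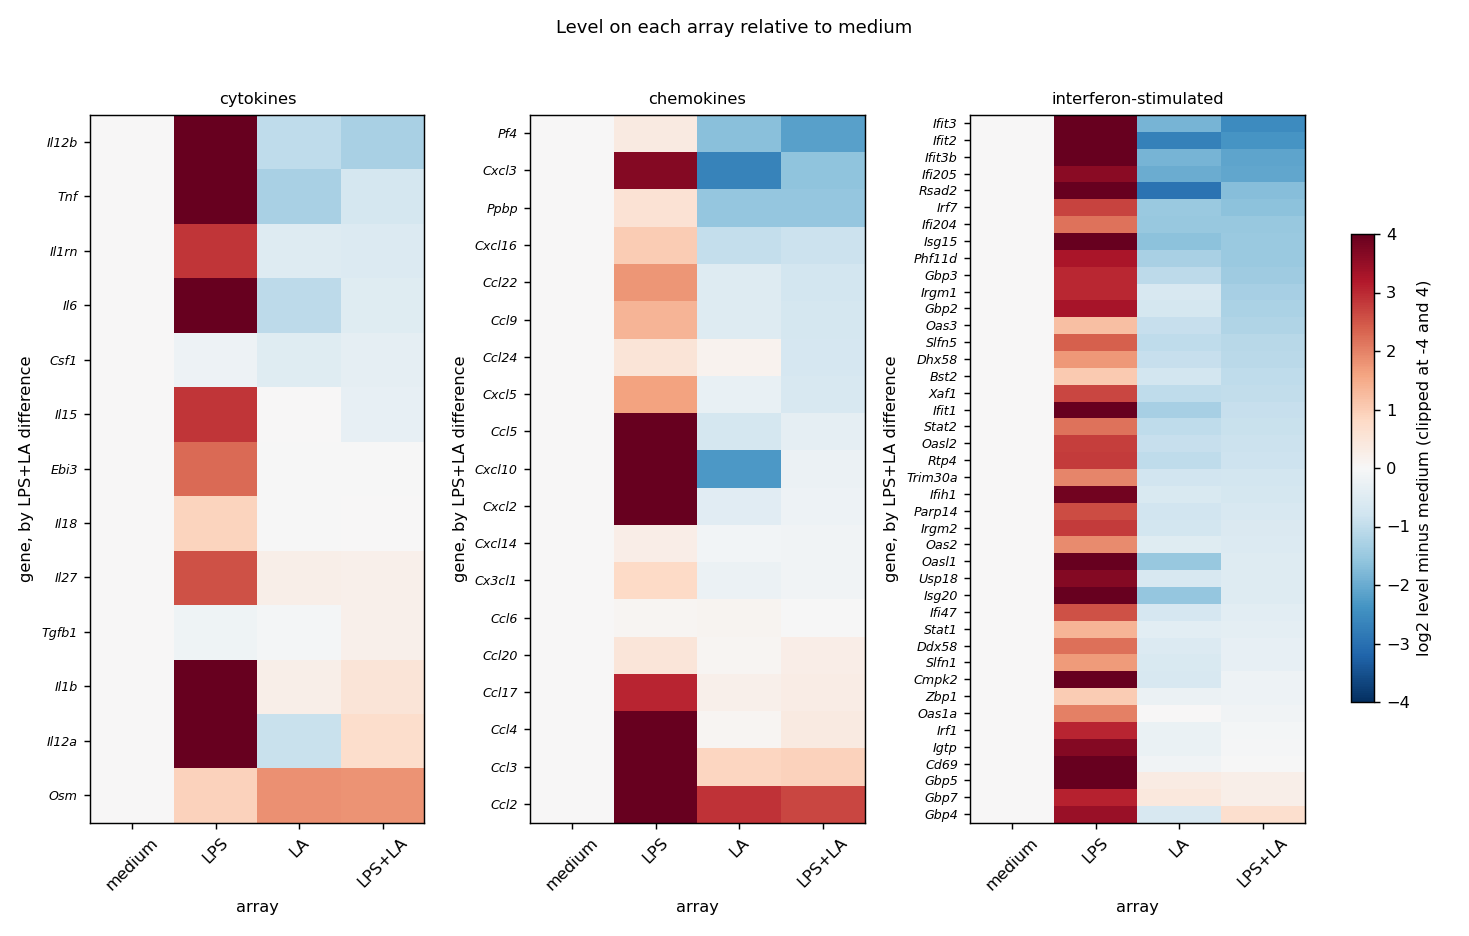
Level on each array minus the level in medium (colour, log2 units, clipped at -4 and 4) for measured cytokine, chemokine and interferon-stimulated genes, ordered by the LPS+LA difference; a level that was dim with LPS or LA alone is drawn at its measured value. The LPS column is red for nearly all genes, while with LPS and LA Ccl2 and Osm are the most red and Ifit3 and Ifit2 the most blue.

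Among chemokines, 19 of 24 were measured, with 1 past 2-fold above medium, 3 past it below and 15 within it (median -0.25). Over all measured genes 3.0% were higher and 3.98% lower, so the 1 higher gene is near that share. Ccl2, described above, was the higher one, and Ccl7, a related monocyte attractant chosen after its value was seen, was at least 5.39-fold higher by its bound. Ccl3 lay at 0.92 (1.06, 5.53, 1.91 and 1.98) and Ccl4 at 0.35 (1.82, 8.11, 1.91 and 2.18). The platelet chemokines Pf4 (4.54-fold, at 3.79, 4.16, 2.12 and 1.61) and Ppbp (2.93-fold) were lower, as was the neutrophil attractant Cxcl3 (3.08-fold, at -1.75, 1.91, -4.42 (dim) and -3.38). Cxcl3 lay at -0.53 with normexp. Cxcl10, an interferon-induced attractant of T cells, lay at -0.25 with LPS and LA, at 7.70 with LPS and at -2.31 with LA. Cxcl16 lay at -0.87.

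Interferon-stimulated genes lay below medium with LPS and LA. Of 50 genes 42 were measured, and 39 of these lay below 0. Among the 42, 16 lay 2-fold or more below, against 3.98% of all measured genes, 26 were within 2-fold and 0 above. The median was -0.77 (quartiles -1.30 and -0.35) and ranged from -0.82 to -0.55 between settings. Relative to medium, the same list had a median of 3.02 with LPS alone and -0.77 with LA alone. Ifit3, an antiviral protein that binds foreign RNA with its relatives, was 5.77-fold lower than in medium, with levels of 1.66, 6.14, -0.19 and -0.86. Ifit2 was 5.12-fold lower (1.44, 6.45, -1.26 and -0.92) and Ifit3b 4.35-fold (-0.46, 4.06, -2.34 and -2.58, or -0.96 log2 units with normexp). Ifi205, a DNA-binding protein of the interferon-inducible p200 family, was 4.24-fold lower, with probes at -2.08 and -1.14. These 4 genes were highest with LPS and lower than medium on both arrays with LA. Ifit3 and Ifit3b are close copies, and their probes may read both. Cd69, an early activation marker, lay at -0.03 with LPS and LA and at 6.81 with LPS alone, and the guanylate-binding protein genes Gbp5, Gbp7 and Gbp4 lay at 0.23, 0.23 and 0.66.

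Many promoters of this list, though not all, hold the interferon response motif. GAAA followed after any 2 bases by GAAA, on either strand, was found in the 250 upstream bases of 19 of 32 genes with a window (59.4%), against 3.42% of the measured genes and 3.46% of all genes with one. Ifit3 (chr19:34583279-34583528, plus strand) with 2 matches and Isg15 (chr4:156200819-156201068, minus strand) with 3 overlapping matches are shown, with matches in capitals, on GRCm38.p6 and along the gene. Isg15, a ubiquitin-like protein chosen after its value was seen, lay at -1.49. On the other strand the motif reads TTTC, any 2 bases, TTTC.
Ifit3: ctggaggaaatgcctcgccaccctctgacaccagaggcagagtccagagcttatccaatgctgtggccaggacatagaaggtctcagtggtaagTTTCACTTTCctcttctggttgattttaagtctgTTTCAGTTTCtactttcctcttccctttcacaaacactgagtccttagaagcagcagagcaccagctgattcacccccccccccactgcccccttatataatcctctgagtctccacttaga
Isg15: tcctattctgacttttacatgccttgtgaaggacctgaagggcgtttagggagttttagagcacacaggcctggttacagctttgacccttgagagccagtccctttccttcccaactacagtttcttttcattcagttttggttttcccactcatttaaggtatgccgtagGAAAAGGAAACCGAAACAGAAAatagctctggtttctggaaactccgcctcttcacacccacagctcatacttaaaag

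NF-kB factors and their feedback inhibitors split. All 33 genes were measured, of which 4 were at least 2-fold higher and 5 lower (median -0.15, or 0.03 in the authors' scale). Over all measured genes these shares were 3.0% and 3.98%. Tnip3 and Tnfaip3, which both restrain NF-kB by way of ubiquitin, were 8.36-fold and 4.46-fold lower. Tnfaip3 stood at 1.61, 5.26, -1.07 and -0.55. Birc2, a ubiquitin ligase (2.67-fold), Sod2, the mitochondrial superoxide dismutase (2.18-fold), and Nfkb2, chosen after its value was seen (-1.01), were also lower. The cytokine signalling suppressors Socs3 (3.22-fold, at -1.19, 3.85, 0.18 and 0.50), Socs1 (3.06-fold, at -3.37, 1.38, -1.86 and -1.76) and Cish (2.55-fold) and the phosphatase Dusp1 (2.07-fold) were higher. These 4 genes were higher than in medium on all 3 treated arrays. With normexp Socs1 lay at 0.61, Dusp1 at 0.87, Birc2 at -0.92 and Sod2 at -0.92.

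Maturation and costimulation genes lay lower, with a median of -0.52 (quartiles -0.90 and -0.19). In this list 4 of 21 measured genes were at least 2-fold lower, against 3.98% of all measured genes, and 0 higher. Tnfrsf9, the costimulatory receptor 4-1BB, was 3.72-fold lower (2.11, 1.83, 0.29 and 0.21), and Cd83, a maturation marker, 3.58-fold lower (1.40, 3.26, -0.19 and -0.44). Cd86, a ligand of CD28, was 2.84-fold lower with its brightest probe, and its 3 probes lay between -2.06 and -0.71. Adam8, a membrane protease, lay at -1.02, or -0.82 with quantile normalization. Cd40, the receptor of T cell help, lay at -0.72, against 3.66 with LPS alone. Ccr7, the receptor for homing to lymph nodes, lay at -0.23 with 1 probe and at 0.55 with the other, so its probes disagree in direction. By their bounds, Tnfsf15 and Tnfsf4, ligands of the TNF family chosen after their values were seen, were at least 2.68-fold and at least 2.34-fold lower. Fscn1, an actin bundler of mature dendritic cells, was highest at 0.80 (1.09, 2.16, 2.01 and 1.89), and the probes of Cd80 ranged from -0.80 to 0.41.

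Most antigen presentation genes lay below medium. Of 19 measured class I genes, 18 lay below 0 and 1, the immunoproteasome subunit Psmb9 (-1.03), was at least 2-fold lower (median -0.56), a share close to the 3.98% of all measured genes, and Psmb9 lay at -0.78 with quantile normalization. H2-K1, a classical class I chain, lay at -0.96 (6.93, 7.63, 6.25 and 5.97) and the transactivator Nlrc5 at -0.02, while H2-Q4 lay at 0.22. Class I genes are close relatives whose probes may read more than 1 of them. Of 17 class II genes, 5 were at least 2-fold lower and 1 higher (median -0.49). The chains H2-Eb1 (2.36-fold), H2-Aa (2.34-fold, at 5.91, 6.21, 4.75 and 4.69) and H2-Ab1 (2.11-fold), the chaperone H2-Ob (3.91-fold, probes -1.97 and -0.67) and the protease Ctsl, chosen after its value was seen (-1.03), were lower. Ciita, the class II transactivator, was 2.05-fold higher (1.35, 1.39, 2.25 and 2.39), and its 2 probes gave 0.81 and 1.03. H2-Aa and H2-Ab1 lay at -0.96 and -0.81 with quantile normalization, and Ciita at 0.85 with normexp. The transactivator thus lay above medium on both arrays with LA, while the class II chains lay below it there.

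Immediate early and cAMP-responsive genes, kept as 1 list, went both ways. Of 28 measured members 4 lay 2-fold or more above medium and 5 below it, and the median was -0.02. Over all measured genes 3.0% were higher and 3.98% lower, and these shares also stand beside the other lists of this paragraph. Beside Egr1 and Fos, the higher ones were Ier2 (3.20-fold, at -0.07, -0.53, 1.58 and 1.61) and Klf4, a factor of myeloid differentiation (2.15-fold, at 0.62, 0.87, 1.09 and 1.73). Atf3, Klf10 (3.81-fold), Crem, a regulator of the cAMP response (3.35-fold), and Klf2, a restrainer of myeloid activation (2.79-fold, at 3.58, 3.54, 2.0 and 2.10), were lower, with Nr4a2, chosen after its value was seen (-1.19). Klf10 and Crem lay at -0.73 and -0.92 when their probes were averaged, and Klf4 at 0.94 with normexp. The core TGACG of the cAMP response element was present in 14 of 21 windows of these genes (66.7%), against 27.2% of the measured genes. Because cAMP-responsive genes were chosen for the list, a high share was in part built in. The serum response motif (the CArG box) was in 1 of 21, against 1.53%. Among phosphatases that switch off MAP kinases, Dusp6 and Dusp1 were higher, Dusp10 was 4.42-fold (-0.63, 1.29, -1.11 and -2.77) and Dusp16 2.02-fold lower, and the median of 11 measured members was 0.38, or 0.08 with each gene's probes averaged. With normexp Dusp10 and Dusp16 lay at -0.92 and -0.49. Myc, in the list of cell cycle genes, was 3.44-fold higher, at 0.76, 0.78, 2.70 and 2.54, and its probes lay between 1.18 and 1.78. The thymidylate synthase gene Tyms (2.11-fold) was the other higher member of 30 in that list, 0 were lower and the median was 0.09. Tyms lay at 0.85 with normexp.

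Sensors and effectors of innate immunity went both ways, and 6.98% of all measured genes were past 2-fold either way. Of 30 pattern recognition genes, 3 were higher and 2 lower (median -0.14). The RNA sensor Tlr3 was 3.53-fold higher, at -3.19, -0.39, -3.74 and -1.37, or 0.62 log2 units with normexp. Nod1, a sensor of peptidoglycan, was 2.51-fold higher (-1.03, 1.41, 0.04 and 0.30) and Lbp, which carries LPS, 2.33-fold, and with normexp these lay at 0.90 and 0.60. Clec4e, a receptor of mycobacterial glycolipid, was 3.41-fold lower (0.81, 3.59, -1.09 and -0.96), and Ly86, the partner of CD180, 2.22-fold. Of 19 inflammasome and cell death genes, Nlrp1b was 2.62-fold higher (probes 0.89 and 1.39), 18 were neither, and the median was -0.05. In nitric oxide, prostaglandin and itaconate synthesis, 5 of 19 were lower and 1 higher (median -0.04). Lower were the arginine transporter Slc7a2 (2.83-fold, at 1.65, 4.91, 0.02 and 0.15), the cofactor enzyme Gch1 (2.78-fold), Acod1, which makes itaconate (2.48-fold, at 2.84, 6.68, 1.17 and 1.54), Ass1, which recycles citrulline to arginine (2.34-fold), and the prostaglandin receptor Ptger4, chosen after its value was seen (-1.04). Nos2, the inducible nitric oxide synthase, lay at -0.60, against 2.96 with LPS alone. Gch1 and Ass1 lay at -0.96 and -0.87 with normexp. Arg2 was 2.11-fold higher, or 0.41 log2 units with normexp, and Arg1 at least 1.93-fold lower.

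Most measured receptors that sense lactate, related acids or protons lay below medium, 5 of 6. Hcar1, the lactate receptor, was dim on all 4 arrays, and 6 of 9 listed receptors were measured with a median of -0.62. Hcar2, the receptor of nicotinic acid and ketone bodies, lay at -0.82, Gpr132 at -0.66 (1.92, 2.42, 0.96 and 1.26) and Gpr65 at -0.58. Of 21 acid-base and sodium transport genes, 1, the sodium pump subunit Atp1b1, was at least 2-fold higher (2.04-fold, at -3.65, -2.61, -0.51 and -2.62), 0 were lower and the median was -0.03. With normexp Atp1b1 lay at 0.38.

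Lipid genes went both ways, and 6.98% of all measured genes were past 2-fold either way. Fasn, fatty acid synthase, was 3.12-fold higher (-1.13, -1.64, 0.13 and 0.51) and Fads1, a desaturase, 2.10-fold lower with 1 probe at -0.07. These were the 2 of 28 measured sterol and fatty acid synthesis genes past 2-fold (median -0.00), a share close to that of all measured genes. In the list of LXR and PPAR targets, 4 of 21 were lower and 1 higher (median -0.24): lipoprotein lipase Lpl (5.36-fold, at 3.25, 2.32, 1.11 and 0.83), the fatty acid receptor Cd36 (2.88-fold), the cholesterol exporter Abca1 (2.76-fold, at 2.23, 1.48, 1.17 and 0.76) and the oxidation enzyme Acadl (2.14-fold) were lower, and the exporter Abcg1 was 2.06-fold higher (2.30, 2.20, 3.35 and 3.34). The cholesterol exporters Abca1 and Abcg1 thus lay on opposite sides of medium. With normexp Cd36, Abcg1 and Fads1 lay at -0.91, 0.92 and -0.82. In polyamine and alternative activation genes, Odc1, the first enzyme of polyamine synthesis (2.91-fold), and spermine synthase Sms (2.39-fold) were lower beside Vegfa, and Klf4 was higher (median -0.14 over 17). Of 19 p53 targets, Pmaip1, a BH3-only death protein (3.66-fold, at 2.78, 2.64, 1.1 and 0.90), Plk2 (3.26-fold) and the cell cycle inhibitor Cdkn1a (2.04-fold) were lower, and Zmat3 was 2.18-fold higher (median -0.34). With normexp Sms, Cdkn1a and Zmat3 lay at -0.90, -0.83 and 0.51.

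Of all measured genes 6.98% were past 2-fold either way, and the remaining process lists are set beside that share. Of 30 measured histone acetylation and demethylation enzymes, the demethylases Kdm5b (2.75-fold) and Kdm3a (2.46-fold) were lower and Kat2a was higher (2.12-fold, with another probe at -0.12), and the median was 0.04. All 3 were under 2-fold with normexp, at -0.93, -0.77 and 0.52. Lysosomal genes had a median of -0.18, with 0 of 29 past 2-fold, the protease Ctsz at -0.78 and the galactosidase Glb1 at 0.51, with another probe at -0.34. In autophagy genes (median -0.05) Sqstm1 was lower and Wipi2 2.05-fold higher (0.40 log2 units with normexp), and ribosome biogenesis genes had a median of -0.12 with 0 of 26 past 2-fold.

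**Figure D4:**
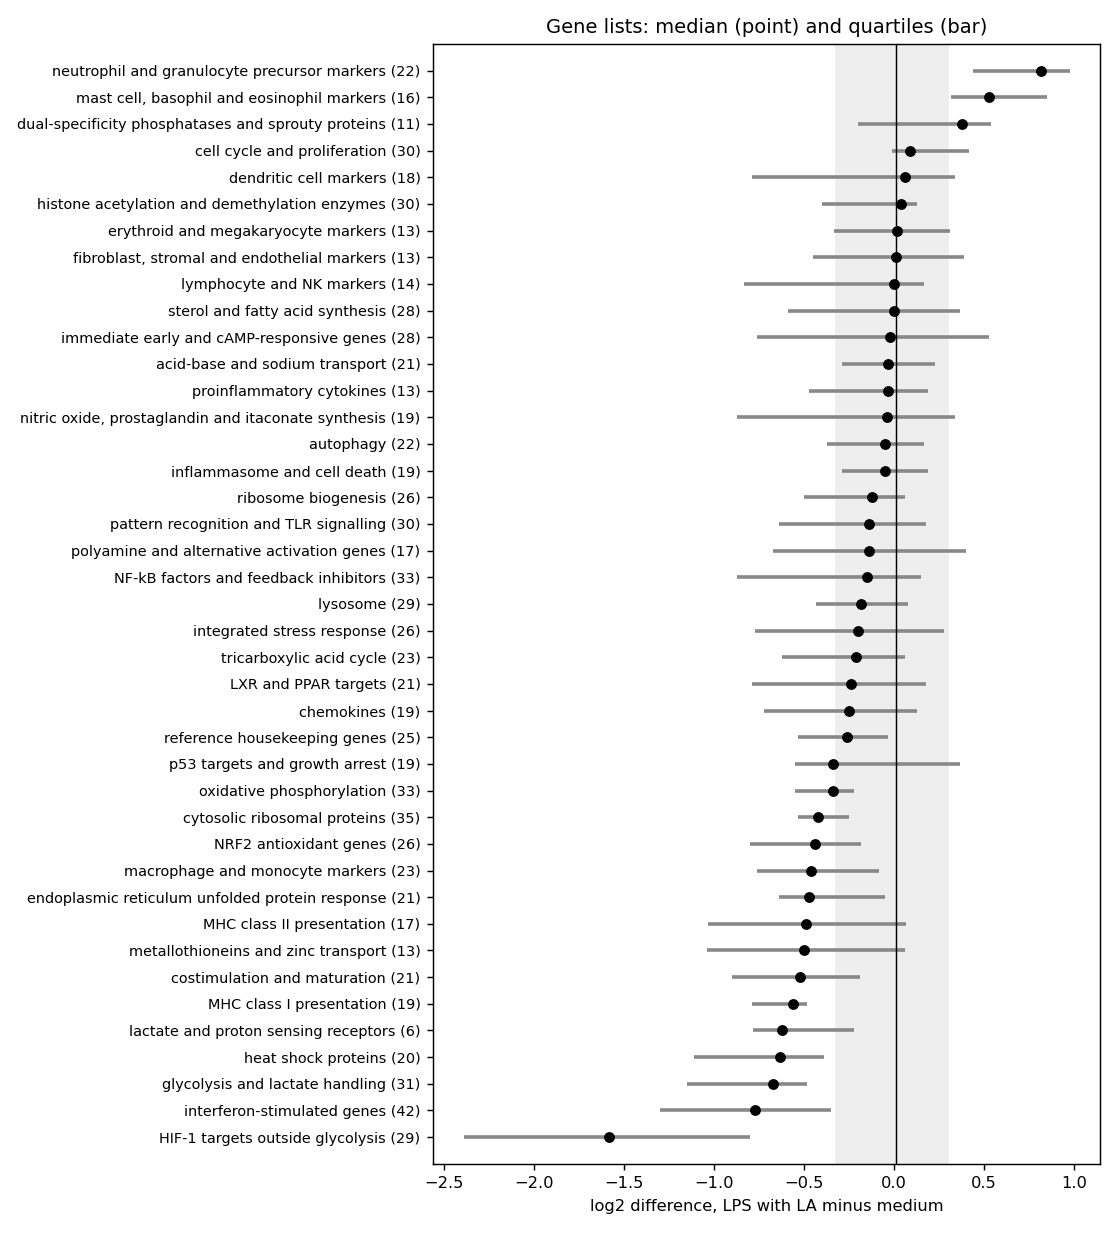
Median (point) and quartiles (bar) of the log2 difference of LPS with LA minus medium for the measured members of 41 gene lists, with the number of members in parentheses. The grey band and vertical line are the quartiles and the median of all 14518 measured genes; HIF-1 targets lie lowest and neutrophil markers highest.

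Markers of neutrophils and their precursors were the list with the highest median, 0.82 (quartiles 0.44 and 0.98). All 22 were measured and lay above 0, against 51.3% of all measured genes, and 4 were at least 2-fold higher, against 3.0%. Between the settings tried the median ranged from 0.64 to 1.0. The chemokine receptor Cxcr2 was 2.69-fold higher (-0.33, -2.31, 0.85 and 1.1), and Cebpe, a factor of granulocyte maturation, 2.15-fold (0.30, 0.19, 1.20 and 1.41). The calcium-binding S100a8 (2.14-fold, at 5.79, 5.73, 6.65 and 6.89) and the antimicrobial Camp (2.04-fold, at 3.29, 3.47, 4.18 and 4.32) followed. Cebpe and Camp lay at 0.95 and 0.86 with normexp. Mmp8 (0.02), Csf3r (0.04), Ly6g (0.05) and Mpo (0.19) were at the lower end. Mmp8 ranged from -0.03 to 0.29 between settings and Csf3r from -0.08 to 0.22, so the count above 0 depends on the scaling. The summed level of the 22 genes, relative to the 75th percentile, was 916, 1062, 1190 and 1244.

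Markers of mast cells, basophils and eosinophils had a median of 0.53, with 14 of 16 above 0. At least 2-fold higher were 4, against 3.0% of all measured genes. These were the eosinophil peroxidase Epx (3.09-fold, at 1.26, 2.39, 3.0 and 2.89), the granule proteins Prg2 (2.55-fold, at 4.57, 5.43, 5.75 and 5.91) and Prg3 (2.04-fold), and Ms4a2, the beta chain of the IgE receptor (2.07-fold). Prg3 and Ms4a2 lay at 0.92 and 0.77 with normexp. Kit lay at -0.48 and Hdc, which makes histamine, at -0.09. Of markers chosen after their values were seen, Mcpt4 was dim on both arrays and Fcer1a was at least 2.12-fold higher by its bound. The median of monocyte and macrophage markers was -0.46, with 18 of 23 below 0, 3 at least 2-fold lower and 0 higher. Of all measured genes 48.7% lay below 0 and 3.98% were at least 2-fold lower. The scavenger receptor Marco (3.15-fold, at -1.32, 1.25, -2.28 and -2.97, or -0.45 log2 units with normexp), the fractalkine receptor Cx3cr1 (2.41-fold, at 1.24, -0.69, -0.33 and -0.03) and the complement gene C1qa (2.13-fold, or -0.95 with normexp) were lower, and Ccr2, the receptor of Ccl2, was highest at 0.68. The summed level of macrophage markers bright on all arrays was 733 in medium and 672 with LPS and LA. Dendritic cell markers had a median of 0.06, with 3 of 18 lower, H2-Aa, H2-Ab1 and Itgax (2.01-fold, probes -1.01 and -0.32), and 1, Ciita, higher.

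The other marker lists had medians near 0. Erythroid and megakaryocyte markers lay at 0.02, with the platelet genes Pf4 and Ppbp lower and 11 of 13 neither. Lymphocyte and NK markers lay at 0.00, with 4 of 14 lower, against 3.98% of all measured genes. These were Cd79b (3.64-fold), Klrd1 (2.67-fold), Il7r (2.59-fold) and Cd3g (2.07-fold), of which Cd79b, Klrd1 and Cd3g were under 2-fold with normexp. Stromal and endothelial markers lay at 0.01, and of 13 measured 1 was lower, the VEGF receptor gene Kdr (3.47-fold, or -0.48 log2 units with normexp). The part of these marker shifts in the other gene groups was not tested.

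**Figure D5:**
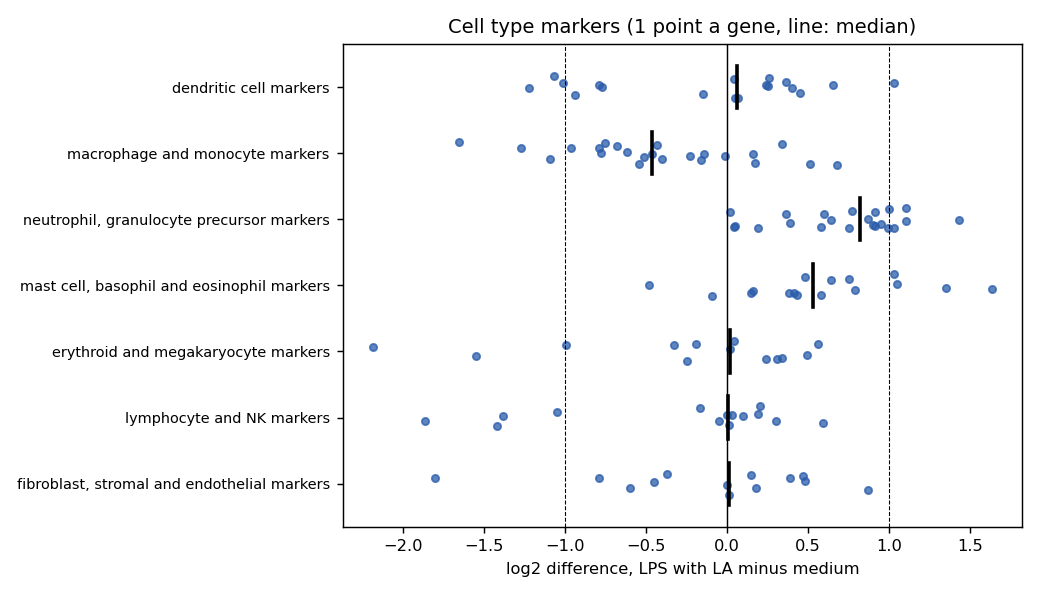
Log2 difference of LPS with LA minus medium (horizontal axis) for the measured markers of 7 groups of cell types, 1 point a gene, with the median as a black line and dashed lines at 2-fold. In the scaling shown all neutrophil markers lie above 0, most macrophage markers below it.

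Of the 16 largest bounds that met the naming rules, 8 each way, 11 belonged to genes seen on a single array. Kank4, a regulator of the actin skeleton, was at least 24.7-fold higher with LPS and LA, the transcription factor Tfap2b at least 14.4-fold, Fbxl13 at least 12.8-fold and Vtcn1, an inhibitory ligand of the B7 family, at least 12.7-fold. These 4 were dim on the other 3 arrays, as were Vstm2l (at least 11.3-fold) and the olfactory receptor Olfr403 (at least 7.37-fold). Adam1a (at least 9.71-fold) was bright on both arrays with LA, and the vomeronasal receptor Vmn2r12 (at least 12.6-fold) was dim in medium only. In the other direction Prl6a1, of the prolactin family (at least 27.3-fold), the growth factor Fgf4 (at least 15.1-fold), Dcaf12l1 (at least 13.5-fold), the erythrocyte protein Epb42 (at least 12.5-fold) and Olfr1469 (at least 12.3-fold) were bright in medium only. The bitter taste receptor Tas2r134 (at least 15-fold) and the collagen cross-linking enzyme Lox (at least 14.4-fold) were bright in medium and with LA, and the Wnt inhibitor Apcdd1 (at least 14.4-fold) in medium and with LPS. A gene bright on 1 array rests on that array alone, and no second array repeats it.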

How the data were processed

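Total RNA of 4 samples, 1 per group, was labelled with Cy3 and hybridised to 1-colour Agilent arrays of 62976 spots that shared 1 slide. The deposited values are processed spot intensities, background-subtracted and linear, made with Agilent Feature Extraction 12.0.3.1 per the file headers, while the submitters' processing notes give 11.5.1.1. A table the authors deposited held the same intensities multiplied by 1 factor per array (6.67 for medium and 9.30 for LPS+LA) on 31529 spots.

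Control spots and spots marked as outliers were left out, log2 intensity was centred on the 75th percentile of each array, and spots of a probe were averaged. Of 56605 probes, 33767 had an accession in the files that matched 1 RefSeq gene symbol, and the brightest probe stood for a gene. Symbols and promoters came from RefSeq (GRCm38.p6). With 1 array per group, no p-value was computed. The normexp (offset 50) and quantile alternatives used limma 3.58.1 in R 4.3.3, and all else Python 3.11.15, pandas 2.3.3, numpy 2.4.6 and matplotlib 3.10.9. Normexp was run on the median spot signal. Scripts were tested on simulated data.

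Named genes were the 15 largest measured differences each way whose probes shared a direction and which normexp, quantile and median scaling left 2-fold or more apart, up to 8 largest bounds each way, up to 4 highest and 4 lowest members of each list, and a fixed set of cytokine, costimulation and lactate genes. Symbols that are Gm numbers, Rik clones or predicted loci were left out of the largest differences and bounds. The members and the 41 lists (971 genes, 11 without a probe) were chosen with earlier results of these data known. The values of 1 list member are not reported here.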

Additional observations from a re-analysis of the deposited data

How the results depend on the processing

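The counts moved under the normexp setting, which changed the input signal, the background model and the offset together, and under the filter. With normexp, 81 genes lay 2-fold or more above medium and 216 below, and without a filter on dim probes 1593 were higher and 1584 lower. In the authors' deposited scale, which moved the median of all genes by 0.18 log2 units, 615 were higher and 324 lower. Higher genes made up, of all genes 2-fold apart, 43.0% in the values reported, 27.3% with normexp, 55.2% when the percentile was taken over spots bright on all 4 arrays, 65.5% in the authors' scale and 50.1% without the filter. The cause was not tested. Of the values of named genes under these alternatives, 2841 moved by less than their error and 186 by more. The pooled count says little, because most settings kept each gene's probe and changed only the filter or the scale of a whole array. All values that moved did so under settings able to change single genes. With normexp 109 moved and 232 did not, with probes averaged 54 and 287, and with quantile normalization 23 and 318. Of the list medians, 364 moved by less than their error and 5 by more. Medians of lists close to 0 changed sign under some setting, among them cytokines, inflammasome, nitric oxide, immediate early, acid-base, polyamine, ribosome biogenesis, lysosome, autophagy, histone enzyme, erythroid and stromal genes. Genes close to 2-fold fell under it with another scaling, among them Itgax, Creld2, Ly86 and Acadl at -0.82, -0.98, -0.97 and -0.91 in the authors' scale. No paired analysis was possible because each group held 1 array. Dim spots limit the precision, and no setting replaces a second culture.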

Other observations

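Small noncoding RNAs, looked up after the values of Rn7sk, Rnu3b1 and Rpph1 were seen, did not all lie on 1 side. Rn7sk, Rnu3b1 and Rpph1 lay at 2.11, 2.54 and 2.22 log2 units above medium, while the U1 genes Rnu1a1, Rnu1b1 and Rnu1b6 lay at -1.26, -1.25 and -1.26 and the U2 gene Rnu2-10 at -0.75. Rmrp (0.04), Rn7s1 (0.21) and Terc (0.19) lay close to medium. The U1 genes are near-identical copies whose probes may read each other. Long noncoding RNAs had a median of 0.09 over 999 genes, with 39 at least 2-fold higher and 31 lower, and protein-coding genes counted 388 higher and 533 lower of 13332.

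Ranked by mean level, the share of genes at least 2-fold higher was 4.92% among the 2906 dimmest genes and 0.966% among the 2900 brightest, and the share at least 2-fold lower was 4.71% and 3.41%. Of 253 genes past 2-fold with several measured probes, all probes lay at least 1.5-fold apart in the same direction in 54.5%, and 49 had a probe of opposite sign.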
